A study of Epinephelus fuscoguttatus x Epinephelus lanceolatus with 9 samples.

Results

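Smooth muscle contractile genes are the genes of the actin and myosin machine that lets the gut wall squeeze and relax. They were picked by a symbol pattern that used no measured value, though earlier results of these data were known. They come from the intestine transcriptome of pearl gentian grouper, a hybrid of Epinephelus fuscoguttatus and Epinephelus lanceolatus. The symbol pattern covered actins, myosin and its light chains and kinases, calponins, transgelins, tropomyosins, desmin, synemin, leiomodins, smoothelins, caldesmon and filamin A. It also covered alpha-actinin 1, PDZ-LIM proteins, calcium handling genes, myosin phosphatase subunits and inhibitors, phosphodiesterase 5 and myocardin. It matched 49 of 22344 genes. The stems actg2, tpm3, vcl and kcnmb1 matched no symbol and are not analysed here. Several members are used outside muscle as well, among them cnn2, cnn3a, tpm4a, myl6, pdlim1 and the ppp1r14 genes.

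The 9 libraries, 1 for each sample, came from intestine and form 3 groups of 3, labelled FM, SBM and Drug. The labels name no diet, dose, duration, age, sampling time or gut segment for any group, and the series title names the herb Lithospermum erythrorhizon. No genotype, strain or sex is given either, so the groups can be told apart here by their labels alone. Whether each library stands for a fish of its own is not stated. The p-values therefore speak for the variation among these libraries, which may be technical in part.

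In vertebrates, smooth muscle of the gut wall contracts when calcium and calmodulin switch on myosin light chain kinase. The kinase phosphorylates the regulatory light chain, which lets smooth muscle myosin pull on actin filaments. Myosin phosphatase removes the phosphate, and its inhibitors and the cGMP pathway set how readily the muscle relaxes. Thin filament proteins such as calponin, caldesmon and tropomyosin sit on actin, while desmin, filamin and alpha-actinin tie the filaments to dense bodies and to the membrane. Most of these genes are under the control of serum response factor and its partner myocardin.

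Library totals lay between 32866956 and 35481806 counts. FM replicate 3 stood apart, since 254 genes with at least 5 CPM there (counts scaled to library size) exceeded every remaining library by more than 10-fold, and these genes held 9.20% of its counts. The 6 hepatocyte marker genes matched summed to 15709.6 CPM in that library and to between 6.65 and 27.9 CPM in the other 8. CPM values were scaled with TMM factors, and triplets of values below run in order of replicate number 1, 2 and 3. With read totals of this size, counting error was small for every member above a few CPM.

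All 11 genes of the smooth muscle marker list are themselves members, so they are no independent check of the label of the gene group. Its 10 tested genes had counts in every library, while the untested desma was at 0 in Drug replicates 1 and 2. The matched skeletal and cardiac muscle markers were scarce: the 24 genes of the striated list together gave 27.6 to 42.9 CPM, against 8160.5 to 23609.5 CPM for the 11 smooth muscle markers. Only 18 of the 23 symbols of the striated list matched, so striated transcripts under other names are not counted here. The fast muscle light chain mylpfa reached 3.35 CPM in Drug replicate 3, was 0.715 CPM in SBM replicate 3, and was at most 0.265 CPM elsewhere.

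The counts of 8 core genes (acta2, myh11a, tagln, cnn1b, myl9b, desma, desmb and mylka) were summed as a measure of how much muscle transcript a library held. This sum was 12811, 16168 and 8678 CPM in FM, 16279, 24917 and 13069 CPM in SBM, and 9844, 14139.5 and 9463 CPM in Drug. SBM replicate 2 was highest and FM replicate 3 lowest, 2.87-fold apart, and the 3 groups overlapped. Replicate 2 was highest and replicate 3 lowest within FM, within SBM and within Drug. The group values were 12552 ± 3752 CPM in FM, 18088 ± 6127 CPM in SBM and 11149 ± 2597 CPM in Drug (SD, n = 3). In bulk tissue, more muscle cells in the sample cannot be told apart from more muscle RNA per cell.

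The sums of other marker lists moved in their own ways. The 6 matched epithelial markers summed to 2911, 3412 and 3131 CPM in FM, 6499, 4835 and 6146 CPM in SBM, and 8960.1, 8087 and 9408 CPM in Drug, so each Drug library was above each SBM library and each SBM library above each FM library. The order of Drug over SBM rested on fabp2, a fatty acid binding protein of enterocytes. Without fabp2, the other 5 genes summed to 2192, 3009.5 and 2295 CPM in FM, 3505, 4053 and 3659 CPM in SBM, and 2712, 2976 and 2810.1 CPM in Drug, with each Drug library below each SBM library and FM overlapping with Drug. Fibroblast markers, 9 genes, summed to 2216, 2344 and 2687 CPM in FM, 2579.8, 3621 and 2627 CPM in SBM, and 2835, 3023 and 2763 CPM in Drug. Enteric neuron and glia markers, 13 genes, summed to 67.2, 70.5 and 42.3 CPM in FM, 88.7, 68.8 and 64.3 CPM in SBM, and 67.3, 66.8 and 53.0 CPM in Drug, lowest in FM replicate 3 as the muscle core was. The 12 pericyte and endothelium markers lay between 324 and 476 CPM. The part of these other cell types in the muscle values was not tested.

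Per gene length, alpha-actin acta2, an actin of contractile smooth muscle, was the most abundant member at 2857, 3565 and 2006 FPKM in FM, 2702, 4973 and 2349.7 FPKM in SBM, and 1995, 2924 and 1912 FPKM in Drug. Transgelin (tagln), an actin-binding protein and classic marker of smooth muscle, came next at 1706, 1978 and 978 FPKM in FM, 1757, 2831 and 1542 FPKM in SBM, and 1488, 1929 and 1356 FPKM in Drug. Desmin b (desmb), the muscle intermediate filament, followed at 829, 1313 and 512 FPKM in FM, 996, 1715 and 855 FPKM in SBM, and 588, 907 and 526 FPKM in Drug. Per length the groups overlapped for all 3 genes, and SBM replicate 2 had the highest value of each gene.

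The order then ran through the regulatory light chain myl9b with a mean of 723 FPKM over the 9 libraries, tropomyosins tpm2 (604 FPKM) and tpm1 (476 FPKM), the myosin heavy chain myh11a (353 FPKM) and calponin cnn1b (225 FPKM). From acta2 down to cnn1b each gene exceeded the next in every library, with a single exception. In Drug replicate 1, myh11a was below cnn1b, at 176 against 191 FPKM. Group means of neighbours differed by less than the sum of their SDs, except tagln and desmb in Drug and tpm1 and myh11a in Drug. These SDs measure the spread between libraries, not the order of genes within a library. Filamin A (flna) and the PDZ-LIM gene pdlim1 lay at 116 and 99.4 FPKM. All other members had means under 99.4 FPKM, from cald1b at 58.1 FPKM downwards.

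At the bottom of the order, 6 members had too few reads for a test and were left out of the edgeR fit: casq1a, ryr2b, desma, mylk4a, lmod2b and lmod3. The largest count of any of them in a library was 27, for the skeletal calsequestrin casq1a in Drug replicate 3, where it was at 0.793 CPM against at most 0.0589 CPM elsewhere. Desmin a (desma) reached 0.580 CPM in FM replicate 2 and was listed at 0 in Drug replicates 1 and 2. The leiomodins lmod2b and lmod3, known from striated muscle in mammals, had at most 1 count in any library. The remaining 43 members were tested.

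**Figure D1:**
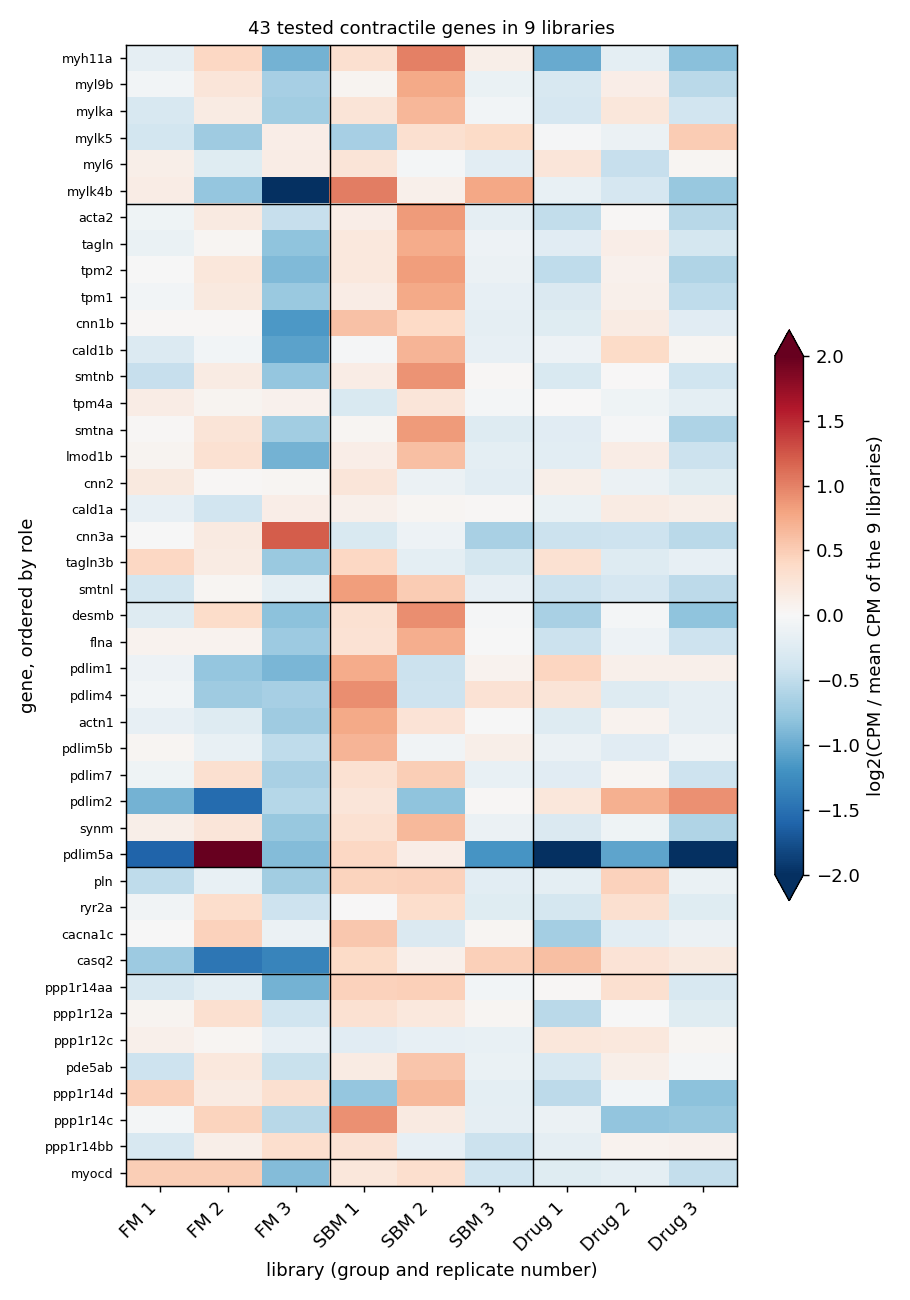
Level of each of the 43 tested members (vertical axis, ordered by role, with lines between roles) in each of the 9 libraries (horizontal axis), as log2 of CPM over the gene's mean CPM. Red is above and blue below the mean, colours end at 2 in each direction, and most rows are red in SBM replicate 2, which is highest in 21 members, and blue in FM replicate 3, which is lowest in 24.

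High and low values were gathered in single libraries. FM replicate 3 was the lowest library in 24 of the 43 tested members, against 11.8% of all 17731 tested genes, and SBM replicate 2 was the highest in 21 members, against 14.9% of all tested genes. The fold between the highest and lowest library had a median of 2.68 over the members and 2.34 over all tested genes without a 0. The mean of SBM was the highest of the 3 group means in 28 of 43 members, against 30.7% of all tested genes.

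Among the myosin genes, smooth muscle myosin heavy chain (myh11a) was at 2097, 3158 and 1230.2 CPM in FM, 2968, 4793 and 2582 CPM in SBM, and 1179, 2077 and 1333 CPM in Drug. Its regulatory light chain myl9b was at 979.6, 1207 and 648 CPM in FM, 1059, 1737 and 928 CPM in SBM, and 816, 1118 and 707 CPM in Drug. Myosin light chain kinase (mylka), the enzyme that starts contraction, was at 122.6, 171 and 93.8 CPM in FM, 182, 243 and 147 CPM in SBM, and 121, 178 and 117 CPM in Drug. For all 3 genes SBM replicate 2 was highest. FM and SBM overlapped for each of them, while every Drug value of myh11a lay below every SBM value.

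The other members of this role showed different patterns. An essential light chain, myl6, was at 20.7, 16.2 and 21.4 CPM in FM, 22.9, 18.6 and 16.6 CPM in SBM, and 22.7, 13.9 and 19.8 CPM in Drug, with all groups overlapping and a range of 1.64-fold over the libraries. Its mean was 19.7 FPKM, against 723 FPKM for myl9b. Any copy that carries only a LOC number would be missed by the symbol pattern. The kinase family member mylk5 was at 41.0, 32.3 and 57.9 CPM in FM, 33.3, 65.8 and 68.3 CPM in SBM, and 51.8, 48.6 and 75.2 CPM in Drug, with replicate 3 highest in each group. The related mylk4b was scarce, at 1.149, 0.606 and 0.206 CPM in FM, 2.12, 1.12 and 1.79 CPM in SBM, and 0.938, 0.829 and 0.617 CPM in Drug. Each SBM value of mylk4b exceeded each Drug value, and SBM and FM overlapped.

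Many thin filament genes had the same highest and lowest libraries as the core, of which acta2, tagln and cnn1b are themselves a part. Tropomyosin tpm2, which lies along the actin filament, was at 1517, 1779 and 831 CPM in FM, 1770.0, 2720.2 and 1409 CPM in SBM, and 1078, 1613 and 1007 CPM in Drug. Calponin cnn1b, an actin-binding brake on myosin, was at 779.5, 775 and 345 CPM in FM, 1147, 1014 and 675 CPM in SBM, and 648, 861 and 655 CPM in Drug, and in this gene SBM replicate 1 exceeded SBM replicate 2. The actin nucleator lmod1b, a leiomodin of smooth muscle, was at 97.9, 116 and 48.9 CPM in FM, 103, 143 and 81.8 CPM in SBM, and 81.3, 105 and 70.1 CPM in Drug. Groups overlapped for all 3 genes in every pairing.

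In CPM, acta2 was at 5234, 6309 and 4035 CPM in FM, 6094, 10005 and 4874 CPM in SBM, and 3927, 5657 and 3782 CPM in Drug, and transgelin at 2338, 2618 and 1471 CPM in FM, 2964, 4259.7 and 2392 CPM in SBM, and 2191, 2791 and 2006 CPM in Drug. Near-identical actin genes can share reads, so the level of acta2 is uncertain to that extent. The striated actins acta1a and actc1a had group means of 5.33 to 11.5 CPM and 4.36 to 5.44 CPM.

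Caldesmon and smoothelin were each present as 2 copies. Caldesmon, which binds actin and tropomyosin and holds back myosin, was mostly cald1b, at 289, 337 and 166 CPM in FM, 342, 559 and 309.9 CPM in SBM, and 325, 453 and 357 CPM in Drug, while cald1a was at 38.1, 32.6 and 46.8 CPM in FM, 45.8, 43.6 and 43.5 CPM in SBM, and 38.9, 47.9 and 46.4 CPM in Drug. Per length, cald1b exceeded cald1a in every library, by 2.30-fold in FM replicate 3 and by 4.60 to 8.28-fold in the other 8. Smoothelin, a protein of contractile smooth muscle, was read from smtna at 100.1, 118 and 60.9 CPM in FM, 102, 178 and 82.7 CPM in SBM, and 84.4, 96.9 and 64.1 CPM in Drug. Its second copy smtnb was at 118, 182 and 95.6 CPM in FM, 181, 303 and 165 CPM in SBM, and 132, 164 and 124 CPM in Drug. Per length smtna exceeded smtnb by 1.23 to 2.07-fold. Reads of such copies can be split between them by the counting, so these ratios are uncertain.

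Calponins and tropomyosins that non-muscle cells also use varied in other ways. The acidic calponin cnn3a was at 14.0, 15.98 and 32.7 CPM in FM, 11.4, 13.1 and 8.995 CPM in SBM, and 10.4, 10.6 and 9.69 CPM in Drug, highest in FM replicate 3, the library lowest in the core genes. The values of cnn3a in SBM lay below all FM values, as did those in Drug. The non-muscle members cnn2 and tpm4a ranged over 1.40-fold and 1.47-fold across the 9 libraries. The neuronal transgelin tagln3b had group means of 5.63, 5.52 and 5.48 CPM in FM, SBM and Drug. The smoothelin-like gene smtnl lay between 2.29 CPM in Drug replicate 3 and 5.87 CPM in SBM replicate 1.

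Genes of intermediate filaments, dense bodies and adhesions split into followers of the core and others, with desmb itself a part of the core sum. Desmin b was at 1261, 1930.0 and 854 CPM in FM, 1865, 2866 and 1473 CPM in SBM, and 962, 1457 and 864 CPM in Drug. Synemin (synm), which links desmin to the membrane, was at 21.8, 23.8 and 11.9 CPM in FM, 24.8, 31.5 and 18.6 CPM in SBM, and 16.5, 18.9 and 13.3 CPM in Drug, and filamin A, which crosslinks actin, was at 1152, 1147 and 661 CPM in FM, 1335, 1807 and 1091 CPM in SBM, and 809, 1022 and 824 CPM in Drug. SBM replicate 2 was highest for each of the 3. Every Drug value of desmb and of flna lay below every SBM value, and groups overlapped for synm.

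PDZ-LIM proteins anchor kinases and alpha-actinin on actin bundles. The most abundant of them, pdlim1, was at 149, 93.1 and 84.7 CPM in FM, 266, 119 and 168 CPM in SBM, and 216, 172 and 172 CPM in Drug, with all Drug values above all FM values. The gene pdlim2, whose product in mice also promotes the breakdown of an NF-kappaB subunit, was at 10.8, 7.15 and 13.9 CPM in FM, 24.7, 11.9 and 21.1 CPM in SBM, and 24.3, 33.9 and 39.2 CPM in Drug. For pdlim2 each Drug library exceeded each FM library, and SBM overlapped with both. The copy pdlim5a was scarce, at 0.356, 4.64 and 0.589 CPM in FM, 1.42, 1.18 and 0.477 CPM in SBM, and 0.256, 0.515 and 0.235 CPM in Drug, and its FM mean rested on FM replicate 2. Alpha-actinin 1 (actn1), which ties actin filaments together in dense bodies, was at 121, 113 and 82.1 CPM in FM, 228, 162 and 135 CPM in SBM, and 114, 142 and 119 CPM in Drug, with all SBM values above all FM values. Of the remaining PDZ-LIM members, pdlim4, pdlim5b and pdlim7 had SBM means of 195, 64.6 and 52.3 CPM, each the highest of the 3 groups.

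Among the calcium genes, casq2 set FM apart from the other groups. Calsequestrin 2 (casq2), the calcium-storing protein of the sarcoplasmic reticulum, was at 4.84, 2.93 and 3.21 CPM in FM, 10.4, 8.56 and 11.1 CPM in SBM, and 12.1, 9.61 and 9.10 CPM in Drug. Every SBM value and every Drug value of casq2 exceeded every FM value. Phospholamban (pln), which restrains the calcium pump of that store, was at 13.5, 17.4 and 11.9 CPM in FM, 26.2, 26.5 and 16.6 CPM in SBM, and 16.7, 26.4 and 17.5 CPM in Drug, with overlap between all groups. The release channel ryr2a was at 10.8, 14.4 and 8.51 CPM in FM, 11.4, 14.5 and 9.59 CPM in SBM, and 8.87, 14.1 and 9.51 CPM in Drug and did not separate any groups. The calcium channel subunit cacna1c of the cell membrane had means of 9.71 ± 2.19, 9.72 ± 2.83 and 7.10 ± 1.40 CPM in FM, SBM and Drug (SD, n = 3).

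Of the phosphatase genes, ppp1r14aa, an inhibitor of myosin phosphatase that sensitises muscle to calcium, was at 37.9, 41.0 and 24.6 CPM in FM, 65.3, 65.7 and 45.6 CPM in SBM, and 47.8, 59.0 and 37.6 CPM in Drug. Each SBM value of ppp1r14aa was above each FM value. The myosin-targeting subunit ppp1r12a was at 23.4, 28.3 and 17.2 CPM in FM, 27.9, 26.3 and 23.4 CPM in SBM, and 15.6, 22.5 and 19.2 CPM in Drug, and its relative ppp1r12c was at 23.6, 22.7 and 19.8 CPM in FM, 18.9, 19.7 and 20.05 CPM in SBM, and 25.9, 25.4 and 22.8 CPM in Drug. Drug libraries were all below SBM for ppp1r12a and all above SBM for ppp1r12c. The inhibitor ppp1r14d, known from gut and brain in mammals, was at 16.6, 13.5 and 14.97 CPM in FM, 6.98, 18.8 and 10.4 CPM in SBM, and 8.36, 11.5 and 6.81 CPM in Drug, with all Drug values below all FM values. Phosphodiesterase pde5ab, which breaks down the relaxing signal cGMP, had group means of 18.1, 24.0 and 19.6 CPM in FM, SBM and Drug. Further genes of this inhibitor family were scarce, ppp1r14bb at 3.10 to 5.30 CPM and ppp1r14c at 4.80 to 15.7 CPM.

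The regulator myocardin (myocd), a coactivator of smooth muscle genes, was at 17.7, 17.7 and 6.86 CPM in FM, 14.8, 15.96 and 9.56 CPM in SBM, and 10.6, 11.0 and 9.04 CPM in Drug. Groups overlapped, and the values were lowest in FM replicate 3. The 3 Drug values lay within a narrow band, 10.2 ± 1.03 CPM, against 14.1 ± 6.26 CPM in FM (SD, n = 3).

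**Figure D2:**
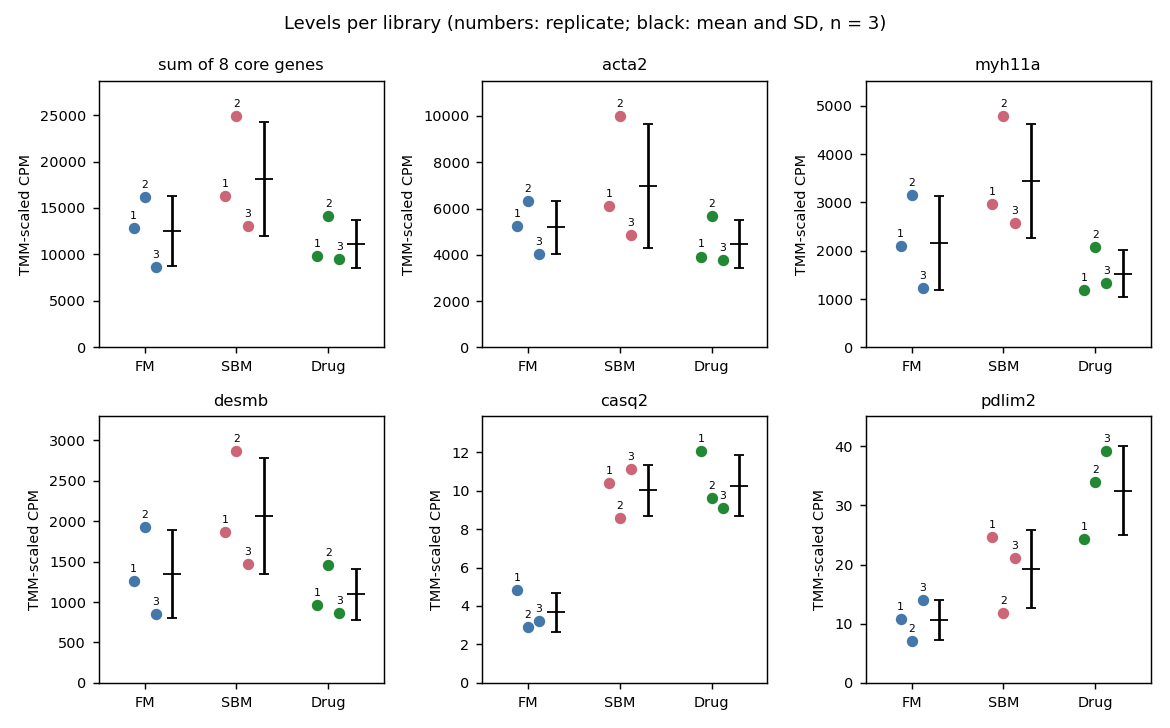
TMM-scaled CPM (vertical axis) per library in the FM, SBM and Drug groups (horizontal axis) for the sum of 8 core genes and for 5 members, with each point a library marked by its replicate number, and the mean and SD of n = 3 in black. The core sum, acta2, myh11a and desmb are highest in SBM replicate 2, while casq2 is lower in all 3 FM libraries than in the other 6 and pdlim2 is highest in Drug replicate 3.

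The first comparison set SBM against FM. Calsequestrin 2 rose 2.73-fold in SBM, from 3.66 ± 1.03 to 10.02 ± 1.32 CPM (SD, n = 3; edgeR's quasi-likelihood test, log2 fold change 1.45, SE 0.24, adjusted p = 0.0426). It was the only 1 of the 43 tested members to pass upwards, against 0.446% of all tested genes, and 0 passed downwards, against 0.147%. At an unadjusted p under 0.05 edgeR had 10 of 43 members, against 20.5% of all tested genes, and DESeq2 11 of 49, against 18.7% of the genes it tested. DESeq2 called 2 members after adjustment, casq2 and actn1, against 1597 of the 21980 genes it tested. Leaving out 1 library ended the call of casq2 for each FM library, each Drug library and SBM replicate 3, and it also ended on the 2 groups alone, without TMM factors and in both FPKM fits. Over all alternatives its adjusted p lay between 7.77e-06 and 0.196 and its log2 fold change between 0.98 and 1.70. The same replicate numbers of FM and SBM deviated together, and with the number as a block 2 members passed, casq2 (adjusted p = 0.0255) and ppp1r14aa (adjusted p = 0.0360), both higher in SBM. All genes past the threshold in that fit are counted further below.

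Of the 43 members, 33 had a positive log2 fold change and 10 a negative one, with a median of 0.40 against 0.01 over all tested genes. Among all tested genes 50.5% had a positive value. The groups did not overlap in 3 members higher in SBM (casq2, actn1 and ppp1r14aa), against 11.1% of all tested genes, and in 1 lower (cnn3a), against 11.7%. The size of the median depended on single libraries, but it stayed positive whichever 1 library was left out. Leaving out SBM replicate 2 gave 0.20, and leaving out FM replicate 2 gave 0.63. With both FM replicate 3 and SBM replicate 2 left out it was 0.065. Scaling by totals gave 0.21, and limma on log2(FPKM + 1) and on log2(FPKM + 0.1) gave 0.21 and 0.22. Leaving out both libraries keeps FM replicates 1 and 2 but SBM replicates 1 and 3. In each group replicate 2 had the highest and replicate 3 the lowest core sum. Within each replicate number this sum was higher in SBM than in FM (16279 against 12811, 24917 against 16168 and 13069 against 8678 CPM). The labels do not say what a replicate number stands for, and why the median fell to 0.065 was not tested.

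By role, all 4 tested calcium genes, 9 of 10 in the intermediate filament, dense body and adhesion role, 5 of 6 myosin genes, 11 of 15 thin filament genes and 4 of 7 phosphatase and cGMP genes had positive values in SBM against FM. Next to casq2, the largest positive values were those of mylk4b (log2 fold change 1.35, SE 0.55, adjusted p = 0.213) and pdlim2 (log2 fold change 0.86, SE 0.33, adjusted p = 0.190). The most negative were cnn3a (log2 fold change -0.90, SE 0.31, adjusted p = 0.162), pdlim5a (log2 fold change -0.86, SE 0.88, adjusted p = 0.614) and ppp1r14d (log2 fold change -0.31, SE 0.34, adjusted p = 0.634). The value of pdlim5a turned to 1.11 without FM replicate 2. That of cnn3a lay between -1.13 and -0.42 over the alternatives, and the FM mean of cnn3a leaned on FM replicate 3. None of these 5 passed the edgeR test.

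None of the core muscle genes passed in this comparison. The log2 fold change was 0.43 for acta2 (0.424 as adjusted p by edgeR), 0.67 for myh11a (0.342), 0.58 for tagln (0.256), 0.62 for desmb (0.347) and 0.58 for cnn1b (0.338). With 3 libraries a group the SE of these values lay between 0.27 and 0.37, and none of the 5 differences exceeded the spread between libraries by this test. All 5 genes were higher in SBM than in FM within each of the 3 replicate numbers. This was not counted over all tested genes, and the 5 genes moved largely together, so they are not independent of each other. With the number as a block their adjusted p-values by edgeR came nearer to the threshold, at 0.0530 for desmb, 0.0700 for tagln, 0.0835 for myh11a, 0.128 for acta2 and 0.157 for cnn1b, with SEs of 0.12 to 0.22.

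The second comparison set Drug against SBM. None of the 43 members passed, against 0% of all tested genes higher in Drug and 0.0395% lower. At an unadjusted p under 0.05 there were 8 of 43 members with edgeR, against 13.1% of all tested genes, and 8 of 49 with DESeq2, against 12.4%. DESeq2 called 0 of them after adjustment, against 614 of the 21980 genes it tested. Negative log2 fold changes were seen in 36 members and positive ones in 7, with a median of -0.42 against -0.01 over all tested genes. Among all tested genes 50.7% had a negative value. Leaving out SBM replicate 2 gave a median of -0.20, and leaving out FM replicate 3 as well gave -0.21. With limma it was -0.21 on log2(FPKM + 1) and -0.25 on log2(FPKM + 0.1). The SBM libraries also enter the first comparison, with opposite sign.

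The groups did not overlap in 8 members lower in Drug, namely desmb, flna, mylk4b, myh11a, pdlim5b, ppp1r12a, smtnb and smtnl, against 10.7% of all tested genes. In 1 member they did not overlap upwards, ppp1r12c, against 9.20%. The largest of the lower values were those of pdlim5a (log2 fold change -1.60, SE 0.95, adjusted p = 0.506), myh11a (log2 fold change -1.17, SE 0.38, adjusted p = 0.260) and mylk4b (log2 fold change -1.07, SE 0.55, adjusted p = 0.437). For myh11a the means were 1529.7 ± 480.1 CPM in Drug and 3448 ± 1181 CPM in SBM (SD, n = 3), and its adjusted p by edgeR and the other tools lay between 0.0633 and 0.610 over the alternatives.

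Few members lay higher in Drug than in SBM. These included pdlim2 (log2 fold change 0.76, SE 0.32, adjusted p = 0.367), ppp1r12c (log2 fold change 0.34, SE 0.13, adjusted p = 0.332) and mylk5 (log2 fold change 0.07, SE 0.32, adjusted p = 0.951). The value of mylk5 turned to -0.18 without SBM replicate 1 and to -0.15 without Drug replicate 3. By role, 14 of 15 thin filament genes, 5 of 6 myosin genes, 8 of 10 in the intermediate filament, dense body and adhesion role, 5 of 7 phosphatase and cGMP genes and 3 of 4 calcium genes had negative values. Calsequestrin 2 did not pass between Drug and SBM, with means of 10.3 ± 1.58 and 10.02 ± 1.32 CPM (SD, n = 3; edgeR, log2 fold change 0.03, SE 0.23, adjusted p = 0.966).

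**Figure D3:**
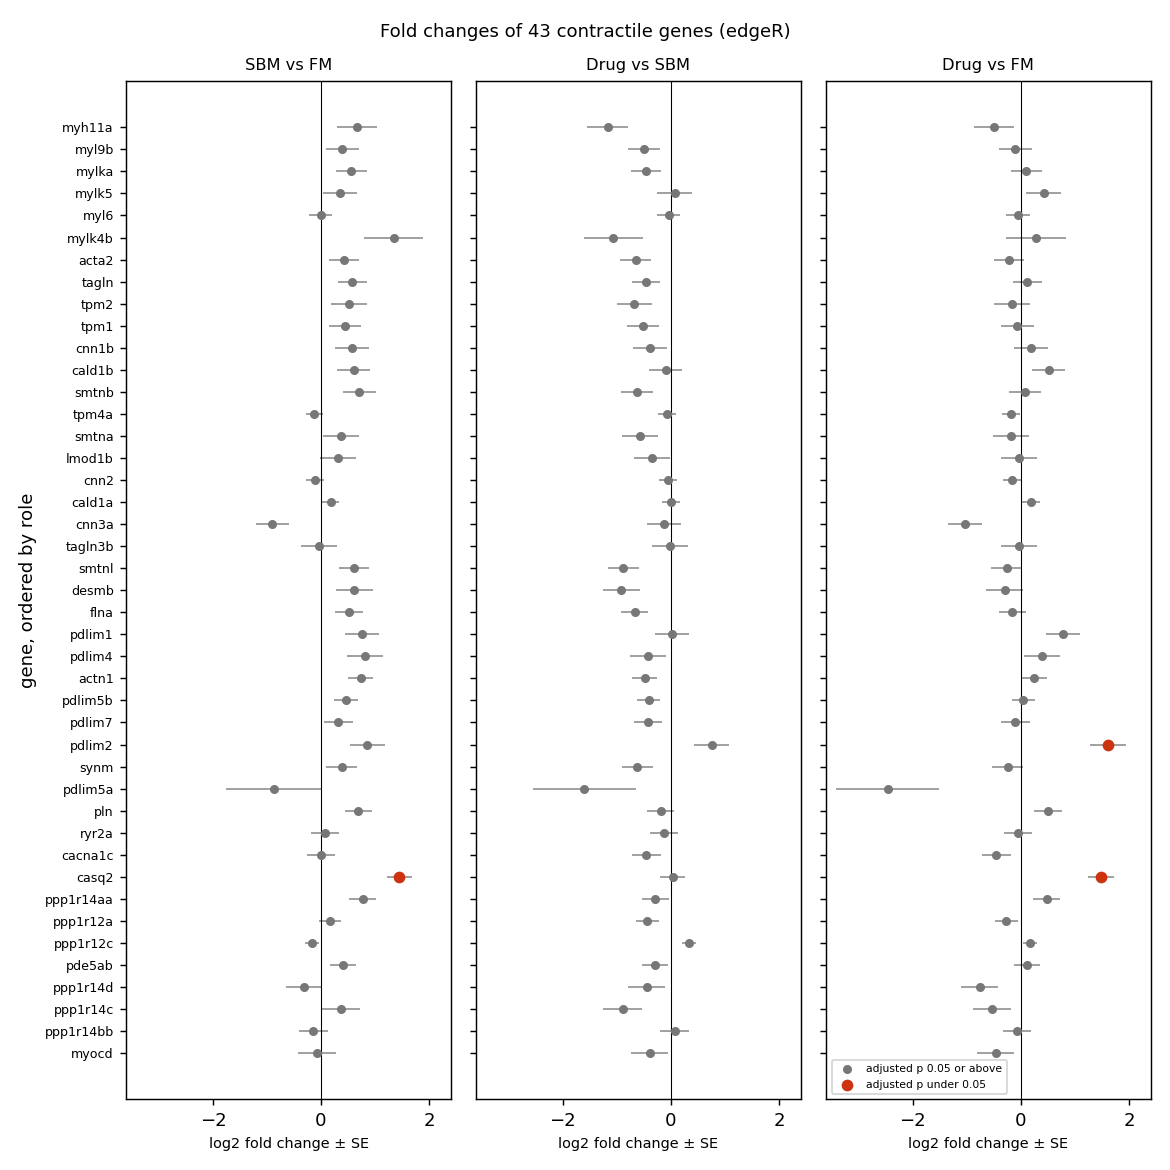
Log2 fold change with its SE (horizontal axis) for each of the 43 tested members (vertical axis, ordered by role) in the 3 comparisons, from the edgeR fit to all 9 libraries. Red points have an adjusted p under 0.05, which holds for casq2 in SBM vs FM and for casq2 and pdlim2 in Drug vs FM, and the other points cluster right of 0 in the first panel and left of it in the second.

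The third comparison set Drug against FM. Calsequestrin 2 rose 2.80-fold, from 3.66 ± 1.03 to 10.3 ± 1.58 CPM (SD, n = 3; edgeR, log2 fold change 1.49, SE 0.24, adjusted p = 0.0182). The gene pdlim2 rose 3.06-fold, from 10.6 ± 3.40 to 32.5 ± 7.52 CPM (SD, n = 3; edgeR, log2 fold change 1.61, SE 0.33, adjusted p = 0.0342). These 2 of 43 members compare with 2.86% of all tested genes called higher, and 0 members compare with 1.52% called lower. DESeq2 called casq2 and pdlim2 upwards and 3 downwards, cnn3a, pdlim5a and desma, the last of which edgeR did not test. It tested 49 members, and over all genes it called 2431 of 21980. An unadjusted p under 0.05 was seen in 5 of 43 members with edgeR, a smaller share than the 23.8% of all tested genes. With the replicate number as a block pdlim1 passed as well (adjusted p = 0.0475).

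The call of casq2 in Drug ended without FM replicate 2, Drug replicate 1 or Drug replicate 3, and its adjusted p lay between 1.40e-06 and 0.0798 over the alternatives. For pdlim2 the call ended when any Drug library, FM replicate 1, FM replicate 2 or SBM replicate 3 was left out, with adjusted p between 0.000199 and 0.126. Both had positive values under every alternative run.

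The other 41 members did not pass, and their values lay on both sides of 0. Positive values were seen in 18 and negative ones in 25 of the 43, with a median of -0.05 against -0.04 over all tested genes. Among all tested genes 53.8% had a negative value, so the members were close to that background. The median ran from -0.19 (FM replicate 3 left out) to 0.078 (FM replicate 2 left out), and it was also positive, at 0.032, with Drug replicate 3 left out. It was -0.0070 with FM replicate 1, -0.027 with Drug replicate 1 and -0.12 with Drug replicate 2 left out. The groups did not overlap in 3 members higher in Drug (casq2, pdlim1 and pdlim2), against 16.6% of all tested genes, and in 3 lower (cnn3a, ppp1r14d and tpm4a), against 16.2%. The gene pdlim1 had a log2 fold change 0.77, SE 0.32, adjusted p = 0.177 by edgeR. Lower values were led by pdlim5a (log2 fold change -2.46, SE 0.95, adjusted p = 0.159), cnn3a (log2 fold change -1.03, SE 0.31, adjusted p = 0.0895) and ppp1r14d (log2 fold change -0.76, SE 0.34, adjusted p = 0.217). The FM mean of cnn3a leaned on FM replicate 3, at 32.7 CPM against 14.0 and 15.98 CPM in FM replicates 1 and 2. Over the alternatives the log2 fold change of cnn3a lay between -1.25 and -0.55.

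None of the core genes passed in Drug against FM. Their log2 fold changes were -0.22 for acta2, 0.12 for tagln, -0.30 for desmb, 0.19 for cnn1b, -0.10 for myl9b and -0.50 for myh11a. Their SEs lay between 0.26 and 0.37, and their adjusted p-values by edgeR between 0.460 and 0.873. Drug and FM share libraries with the other comparisons, which are therefore not independent of this one.

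Since the amount of muscle transcript differed between libraries, each member was also read as its CPM per 1000 CPM of the core genes, with the gene itself left out of the core. This ratio sets a whole-tissue level against the core sum, so it moves when either of them moves, and it has no test. It narrowed the spread over the 9 libraries in 25 of the 43 members, among them every tested core gene. This count was not made over all tested genes, so it cannot be read as particular to the members. For tropomyosin tpm2 the highest library was 3.27-fold the lowest in CPM and 1.24-fold as a ratio. For tpm1 these folds were 2.84 and 1.23, for flna 2.73 and 1.27, for myl9b 2.68 and 1.30, for mylka 2.59 and 1.32, and for synm 2.65 and 1.35. The ratio of tpm2 was 118, 110.0 and 95.7 in FM, 109, 109 and 108 in SBM, and 109, 114 and 106 in Drug. Ratios of tpm2, flna and synm overlapped between all groups. Those of tpm1 and myl9b were lower in each SBM library than in any FM or Drug library, and mylka differed in Drug.

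The opposite held for the other members, some of which other cell types use as well. A level that does not follow the core can widen through the division alone. For myl6 the fold between the highest and lowest library went from 1.64 in CPM to 3.29 as a ratio, for cnn2 from 1.40 to 3.22, for tpm4a from 1.47 to 2.59, for cald1a from 1.47 to 3.08 and for ppp1r12c from 1.37 to 3.34. For casq2 it went from 4.12 to 6.76 and for pdlim2 from 5.48 to 9.36, so both called genes were more spread as ratios than as levels. The calcium channels cacna1c and ryr2a widened too, from 2.33 to 3.21 and from 1.70 to 1.73. The inhibitor ppp1r14c, of a family used outside muscle as well, narrowed from 3.26 to 2.83. The widening therefore did not follow use outside muscle throughout.

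Relative to the core sum, caldesmon cald1b stood higher in Drug. Its ratio was 22.6, 20.9 and 19.2 in FM, 21.0, 22.4 and 23.7 in SBM, and 33.1, 32.0 and 37.7 in Drug CPM per 1000 CPM of core, so all 3 Drug libraries exceeded the other 6. The group values were 20.9 ± 1.69 in FM, 22.4 ± 1.37 in SBM and 34.2 ± 3.01 in Drug (SD, n = 3). The ratio of transgelin was 223, 193 and 204 in FM, 223, 206 and 224 in SBM, and 286, 246 and 269 in Drug, and that of the kinase mylka was 9.66, 10.7 and 10.9 in FM, 11.3, 9.84 and 11.4 in SBM, and 12.4, 12.8 and 12.5 in Drug. Both were higher in each Drug library than in any other library. The ratio of phospholamban, at 1.81 ± 0.0941 in Drug, also exceeded those of FM (1.17 ± 0.177) and SBM (1.31 ± 0.275) in every library. In CPM, all groups overlapped for cald1b, tagln, mylka and pln. For cald1b in CPM the adjusted p by edgeR was 0.928 in Drug against SBM and 0.341 in Drug against FM. The mean core sum was lowest in Drug, at 11149 CPM. Whether muscle or other cells carried the higher ratios was not tested.

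Myosin heavy chain and desmin went the other way between SBM and Drug. For myh11a the ratio was 196, 243 and 165 in FM, 223, 238 and 246 in SBM, and 136, 172 and 164 in Drug, and for desmb it was 109, 136 and 109 in FM, 129, 129.97 and 127 in SBM, and 108, 115 and 100.5 in Drug. Each Drug value was below each SBM value in both genes, and FM overlapped with both groups. Since these genes belong to the core, a lower share of myh11a raises the ratio of every other member, and the ratios are not independent of each other.

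Counted over members, the ratio did not overlap between Drug and FM in 11 members higher in Drug, against 9.10% of all tested genes, and in 0 lower, against 5.66%. The 11 were actn1, cald1b, casq2, cnn1b, mylka, pdlim1, pdlim2, pln, ppp1r14aa, smtnb and tagln. Between Drug and SBM it was higher in 13, against 24.9% of all tested genes, a share close to that background. It was lower in Drug than in SBM in 3, desmb, myh11a and pdlim5a, against 0.547%. Between SBM and FM it was lower in 5 members, against 19.5%, and higher in 0, against 0.806%.

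**Figure D4:**
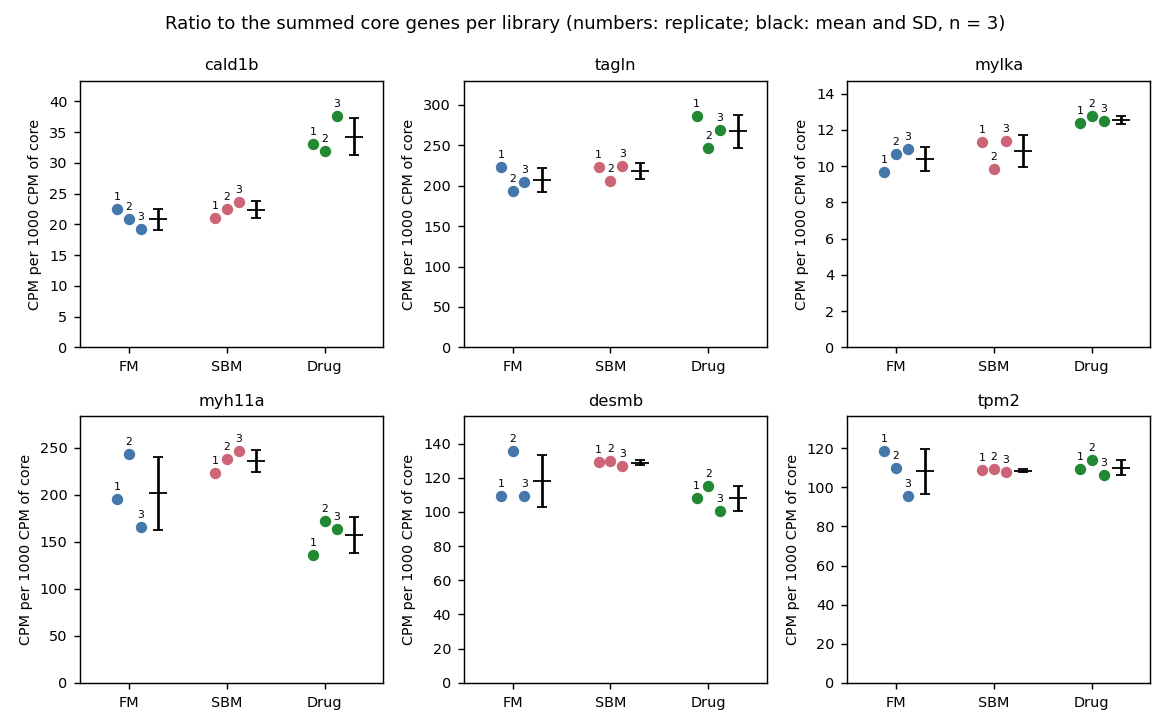
Ratio of 6 members to the summed core genes, as CPM per 1000 CPM of core (vertical axis), in each library of the FM, SBM and Drug groups (horizontal axis), with each point a library marked by its replicate number, and the mean and SD of n = 3 in black. The Drug libraries lie above the other 6 for cald1b, tagln and mylka and below SBM for myh11a and desmb, while the ratio of tpm2 overlaps between all groups.

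A wider list of 41 genes that act in or around contraction (among them calcium entry and release, receptors, the cGMP pathway, transcription factors and the membrane-linked dystrophin complex) was read beside the members. Of its 40 tested genes, 0 passed in any of the 3 comparisons with edgeR. In SBM against FM 30 had positive and 10 negative log2 fold changes, with a median of 0.24 against 0.01 over all tested genes. In Drug against SBM 15 were positive and 25 negative, with a median of -0.17 against -0.01. In Drug against FM 25 were positive and 15 negative, with a median of 0.07 against -0.04. Among all tested genes the positive share was 50.5%, 49.3% and 46.2% in these 3 comparisons.

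The most abundant genes of that list per length were the calmodulins calm2a and calm1a, the calcium sensors that switch on myosin light chain kinase. In CPM calm2a was at 768, 596 and 548 CPM in FM, 909, 577 and 771 CPM in SBM, and 1012, 768 and 905 CPM in Drug, and calm1a was at 182, 148 and 193 CPM in FM, 172, 199 and 195 CPM in SBM, and 239.9, 229 and 227 CPM in Drug. All Drug values of calm1a exceeded all values of the other libraries, with an adjusted p = 0.142 against FM by edgeR.

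Interstitial cells of Cajal pace gut muscle, and their markers were scarce. The receptor kita, which these cells need in mammals, fell in Drug against FM, at 4.57, 5.19 and 5.77 CPM in FM, 2.64, 3.79 and 2.68 CPM in SBM, and 2.62, 2.69 and 2.11 CPM in Drug (log2 fold change -1.07, adjusted p = 0.0415 by edgeR). Every FM value of kita exceeded every value of the other 2 groups. Of all tested genes 11.7% lay without overlap lower in SBM than in FM, and 16.2% lower in Drug. The gene was 1 of 4 tested in its list to be called lower in Drug, against 1.52% of all tested genes. All 4 had negative log2 fold changes in Drug against FM, while 2 were positive and 2 negative in SBM against FM. How the call of kita depends on the fit is not given here. The chloride channel ano1a, the defining marker of these cells in mammals, was under 1 CPM in every library. Epithelial markers that passed were cdh17, higher in SBM (adjusted p = 0.0283) and in Drug (adjusted p = 0.0243) than in FM, and fabp2, higher in Drug than in FM (adjusted p = 0.0183), all by edgeR. That is 1 of 6 tested in SBM, against 0.446% of all tested genes called higher, and 2 of 6 in Drug, against 2.86%. The fit of the 2 groups alone called 0 genes in SBM against FM, so the call of cdh17 in SBM ended there. In Drug against FM 4 of the 6 had positive and 2 negative log2 fold changes. The 2 were krt8, with means of 1087 CPM in Drug and 1504 CPM in FM, and anxa13, with 58.5 and 66.3 CPM. The part of either cell type in the values of casq2 and pdlim2 was not tested. In the other lists 0 genes passed in any comparison, of 10 smooth muscle, 10 striated muscle, 9 fibroblast, 12 pericyte and endothelium, 11 neuron and glia and 6 hepatocyte genes tested.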

How the data were processed

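The deposited count tables hold raw whole-number reads for 22344 genes and 9 libraries, and all 9 single-library tables held the same values as the series table. The deposited FPKM values were made by the authors from these counts and library totals: this was checked on 15780 genes of 10 or more counts throughout, where FPKM times library total over count stayed constant within 1e-06. The submitters' processing notes list fastp, HISAT2, HTSeq, DESeq2, R 3.2.0 and the mouse build mm10 without roles. The reference that took the reads is not given in the sources. Strand use is not stated and 36.3% of genes carry only a LOC number. No sequence is printed.

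Tests used edgeR 4.0.16 (R 4.3.3) on the deposited counts: quasi-likelihood F test, robust, filterByExpr, TMM factors, 1 model of 9 libraries, 3 groups and 6 residual degrees of freedom, two-sided, Benjamini-Hochberg over 17731 genes, threshold 0.05. Each SE was the size of the log2 fold change divided by the root of its F value. CPM values use TMM-scaled totals of tested genes, which set every level. Alternatives were DESeq2 1.42.0, limma 3.58.1 on log2(FPKM + 1) and log2(FPKM + 0.1), other scalings and filters (none, or at least 50 counts in every library), 2-group fits, a replicate block and libraries left out. On simulated counts of 17589 genes, SBM vs FM recovered 75 of 100 changes of 4-fold and 6 of 100 of 2-fold, with 6 false calls among 87.

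Same-numbered libraries had correlated deviations from their group means of 0.155 to 0.318 for FM with SBM (3 pairs), above the 0.1 set as the limit. A fit with the number as a block is therefore given beside the main one. The main fit, which gave every SE and adjusted p-value not marked as block or alternative, holds no replicate term. Values per library are given for members past the threshold, for defining genes, for the 3 most abundant per length in each role and for the 3 largest changes each way with at least 1 CPM in 3 libraries. Where other genes are named, they were chosen after their values were seen. Members, lists and core were chosen with earlier results of these data known. Libraries of a group differed far beyond sampling noise (chi-square over degrees of freedom at least 58.1), so none was counted as a copy.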

Additional observations from a re-analysis of the deposited data

How the results depend on the processing

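The count of members past the threshold stayed small in every fit. In SBM vs FM it was 1 upwards, 2 with DESeq2, 2 with the replicate block, 0 without TMM factors, 0 on the 2 groups alone, 0 in both FPKM fits, and 0 to 1 with a library left out. In Drug vs FM it was 2 upwards, with 0 to 2 when a library was left out, and 0 downwards, with 3 for DESeq2. In Drug vs SBM it was 0 each way under every alternative.

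All genes past the threshold numbered 105 in SBM vs FM, 2 to 424 with a library left out, 1597 with DESeq2, 236 with the stricter filter, 0 on the 2 groups alone, 295 with the replicate block, 330 without FM replicate 3 and SBM replicate 2, 169 without liver-restricted transcripts, and 49 with limma on log2(FPKM + 1) and 69 on log2(FPKM + 0.1). In Drug vs SBM they were 7, 0 to 36 with a library left out, 614 with DESeq2, 0 without TMM factors, 0 on the 2 groups alone, 1 with the replicate block, 0 without FM replicate 3 and SBM replicate 2, and 4 and 0 in the FPKM fits. In Drug vs FM they were 777, 10 to 1711, 2431 with DESeq2, 1578 on the 2 groups alone, 1293 with the replicate block and 1199 without FM replicate 3 and SBM replicate 2.

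The members' median log2 fold change in SBM vs FM was 0.20 to 0.63 with a library left out, 0.21 without TMM factors, 0.065 without FM replicate 3 and SBM replicate 2, and 0.21 and 0.22 in the FPKM fits. In Drug vs SBM it was -0.53 to -0.20 with a library left out, -0.21 without both libraries, and -0.21 and -0.25 in the FPKM fits. In Drug vs FM it was -0.19 to 0.078 with a library left out, positive without FM replicate 2 (0.078) and without Drug replicate 3 (0.032), -0.14 without TMM factors, -0.029 with the stricter filter, -0.19 without both libraries and -0.10 with log2(FPKM + 0.1). Values of pdlim5a in SBM vs FM lay between -1.35 and 1.11 with a library left out, the last without FM replicate 2. Those of mylk5 in Drug vs SBM lay between -0.18 and 0.24, and were -0.18 without SBM replicate 1 and -0.15 without Drug replicate 3. The cause of these shifts was not tested.

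For Drug vs SBM and Drug vs FM the correlations of same-numbered libraries were 0.0681 to 0.370 and 0.0524 to 0.114. The lowest of each was under the limit. Each of the 6 libraries in either comparison still correlated best with its own number, a hint from the data. The block changed no member's call other than ppp1r14aa and pdlim1. Changes of 2-fold were mostly out of reach of the test, and members under 1 CPM are limited by depth.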

Other observations

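Some transcripts of skeletal muscle stood out in 2 libraries, while others of the striated list did not. Skeletal alpha-actin acta1b was at 0.301, 0.132 and 0.236 CPM in FM, 0.174, 0.488 and 3.54 CPM in SBM, and 0.341, 0.172 and 9.60 CPM in Drug. The muscle creatine kinase ckma was at 0.0547, 0.0791 and 0.0589 CPM in FM, 0, 0.0287 and 1.19 CPM in SBM, and 0.0284, 0 and 1.73 CPM in Drug, and troponin tnnt3a at 0.0547, 0.0264 and 0.177 CPM in FM, 0, 0 and 0.804 CPM in SBM, and 0.0569, 0 and 1.82 CPM in Drug. For all 3 genes Drug replicate 3 was highest and SBM replicate 3 next, while the core sum was lowest of its group in both libraries. These genes were named after their values were seen.

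The sarcoplasmic calcium pump atp2a2b, which fills the store that casq2 buffers, was at 140.2, 106 and 97.1 CPM in FM, 298, 79.8 and 127 CPM in SBM, and 135, 117 and 148 CPM in Drug. SBM replicate 1 was highest, and groups overlapped. It was named after its values were seen.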
